A study of Mus musculus with 8 samples.

Results

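The genes described here are 7 genes of cholesterol synthesis that the transcription factor SREBP2 controls, *Hmgcs1*, *Idi1*, *Fdft1*, *Sqle*, *Cyp51*, *Insig1* and *Srebf2*, out of 15112 named genes with a tested probe. They were taken by symbol, and every probe of each was followed. Expression was measured in the hippocampus of male Muta Mouse, a transgenic strain that carries a bacterial reporter gene for mutation assays, aged 9 weeks. The 4 control mice received the vehicle, olive oil, and the 4 BaP-exposed mice received benzo[a]pyrene (BaP), a polycyclic aromatic hydrocarbon, in olive oil on 3 days running, by gavage, at a daily dose of 70 mg/kg bw, with tissue collected 24 hr after the last dose. Each group had 5 dosed mice, of which 4 were on the arrays, and each array held 1 mouse. Hippocampal RNA was labeled with Cy5 and hybridized with a universal mouse reference RNA in Cy3, without a dye swap, so the value of a probe is a log2 ratio of hippocampus over reference and dye bias is not cancelled. The comparison asks whether the exposure altered expression of these genes in the hippocampus.

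Cells make cholesterol from acetyl-CoA through mevalonate, isoprenoids and squalene. SREBP2 stays in the endoplasmic reticulum with its escort SCAP while INSIG proteins hold the pair there in the presence of sterols. When sterols fall, SREBP2 travels to the Golgi, is cut by proteases, and its released end enters the nucleus and binds sterol regulatory elements near the genes of the pathway, *Insig1* and *Srebf2* included. The brain makes its own cholesterol because lipoproteins of the blood hardly cross into it, and oligodendrocytes and astrocytes are its main producers.

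The promoters are shown first because SREBP2 acts through them. RefSeq promoter windows on GRCm38.p6, from 250 bases before to 50 bases after the start of the gene, were matched for 5 of the 7 genes, *Hmgcs1*, *Idi1*, *Cyp51*, *Insig1* and *Srebf2*, and not for *Sqle* and *Fdft1*. Capitals mark the letters TCACNCCA, the core of a sterol regulatory element, and CCAAT or its reverse complement ATTGG, the box bound by NF-Y, a factor known to act with SREBP2. The 3 windows printed are those of both genes that hold the sterol regulatory element core and of *Insig1*, whose expression ran closest to that of *Hmgcs1* among the mice.

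*Hmgcs1*, chr13:119690101-119690400, plus strand: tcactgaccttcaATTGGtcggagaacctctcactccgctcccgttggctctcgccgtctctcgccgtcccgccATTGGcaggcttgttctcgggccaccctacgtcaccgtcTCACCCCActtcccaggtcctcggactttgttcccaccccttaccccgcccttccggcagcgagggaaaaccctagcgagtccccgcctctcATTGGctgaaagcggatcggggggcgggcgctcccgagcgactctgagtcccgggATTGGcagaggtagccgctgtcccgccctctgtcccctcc

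*Srebf2*, chr15:82147019-82147318, plus strand: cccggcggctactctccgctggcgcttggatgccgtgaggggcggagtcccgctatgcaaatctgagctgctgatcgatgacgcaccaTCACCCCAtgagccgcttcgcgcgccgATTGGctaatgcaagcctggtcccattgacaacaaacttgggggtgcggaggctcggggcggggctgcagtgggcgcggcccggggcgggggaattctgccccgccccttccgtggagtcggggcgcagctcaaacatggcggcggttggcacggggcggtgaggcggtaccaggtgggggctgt

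*Insig1*, chr5:28071162-28071461, plus strand: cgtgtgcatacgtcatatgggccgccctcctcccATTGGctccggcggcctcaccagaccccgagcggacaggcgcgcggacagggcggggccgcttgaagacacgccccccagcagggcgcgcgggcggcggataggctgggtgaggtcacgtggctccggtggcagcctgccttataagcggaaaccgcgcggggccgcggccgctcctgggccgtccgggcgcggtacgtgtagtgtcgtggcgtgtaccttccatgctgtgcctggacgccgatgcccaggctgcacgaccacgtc

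On both strands, TCACNCCA was found in 2 of the 5 windows, at -137 from the start of *Hmgcs1* and at -162 from that of *Srebf2*, and in 4.36% of the 32851 mouse promoters of the same length. The CCAAT box was in 5 of 5 windows, 4 times in *Hmgcs1*, against 37.41% of all promoters. The GC box GGGCGG, bound by SP1, was also in 5 of 5, against 35.66%. The palindromic E-box CACGTG was in *Insig1* alone of the 5, against 7.15% of all promoters. The core GCGTG of the element bound by the aryl hydrocarbon receptor, which BaP activates, was in the windows of *Cyp51*, *Insig1* and *Idi1*, against 32.39% of all. No match overlapped another. A match of letters is a description and not a binding site.

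For 4 arrays, those of control mice 3 and 4 and BaP-exposed mice 3 and 4, the title and the source name of the sample give opposite groups. Titles were used, and the identity numbers of the mice fall into separate ranges for the groups as titled. The same 4 arrays fill the second row of the slide, so the row and the conflict of labels cannot be told apart, and the results of the 7 genes and of the pathway genes named below are given for the other 4 arrays as well. The arrays had 59305 spots each, with 56.6% to 67.4% of them well above the Cy5 background. Control mouse 1 had 1483 outlier spots, which were dropped, against 310 to 371 on the other arrays. All 10 astrocyte, 10 neuron and 12 oligodendrocyte markers were well above background on all 8 arrays. Values for a whole tissue cannot tell fewer cells of a type from less RNA per cell.

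None of the 7 genes passed limma's test between BaP-exposed and control mice after Benjamini-Hochberg adjustment over the 32624 tested probes, where 3 probes (0.0092%) passed an adjusted p of 0.05. The paper, which used a different test and a 1.5-fold cutoff, reports many more altered transcripts from its arrays at this dose. The source of that difference was not tested. At an unadjusted p of 0.05, 0 of the 7 passed in limma and 0 in a gene-wise F test, against 8.77% of all probes in limma. The groups overlapped for all 7, while 5.06% of all probes had groups that did not overlap. The log2 fold changes, BaP minus control, ran from -0.18 to 0.08 with a median of 0.01, against 0.00 over all named genes. Of the 7, 4 were above 0 and 3 below. All 7 were above 0, at 0.105 to 0.32, under median centring of the arrays, which moved the median of all probes by 0.17. The median of the 7 was -0.14 without BaP-exposed mouse 4 and -0.10 with the mean over the probes of a gene. The 95% confidence intervals of all 7 lay within a 1.5-fold change in either direction, which was true of 86.4% of all named genes tested. Over the brightest probe of each gene, the interval that reached furthest down was that of *Fdft1*, at a fold of 0.766, and the one furthest up that of *Srebf2*, at 1.26, while the interval of a dimmer *Srebf2* probe reached down to a fold of 0.691.

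**Figure D1:**
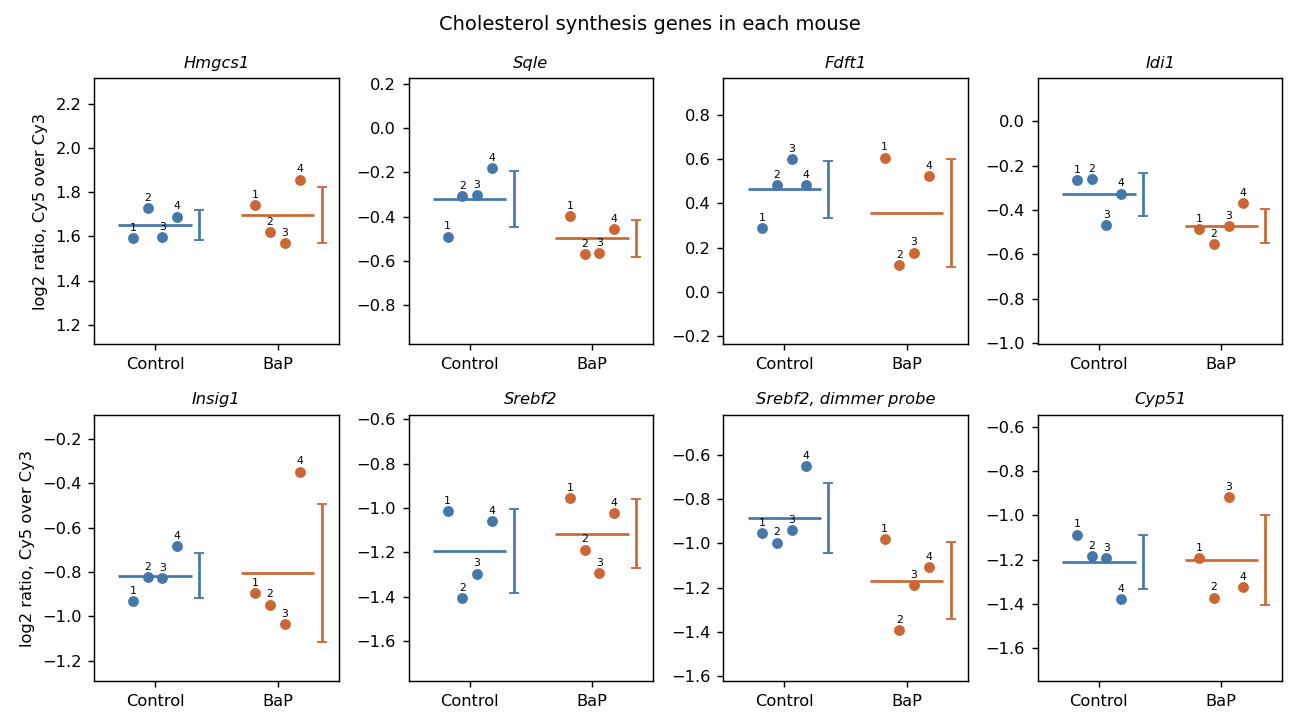
Log2 ratio of hippocampus (Cy5) over reference (Cy3) for the 8 tested probes of the 7 genes in each mouse, numbered 1 to 4 within its group, with horizontal lines at the group means and bars for ± 1 SD (n = 4). Every panel spans the same height on the log2 scale, and in every panel the points of control and BaP-exposed mice overlap.

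The first enzyme on the way to mevalonate among these genes is that of *Hmgcs1*, the cytosolic HMG-CoA synthase. Its log2 ratios in control mice 1 to 4 were 1.59, 1.73, 1.60 and 1.69. In BaP-exposed mice 1 to 4 they were 1.74, 1.62, 1.57 and 1.86. BaP-exposed mice held both the lowest and the highest value of the 8 mice. The means were 1.65 ± 0.07 and 1.70 ± 0.13 (SD, n = 4 each), and they differed by a log2 fold change of 0.05 (standard error, SE, 0.09, 95% confidence interval -0.15 to 0.24, limma adjusted p = 0.899). Over the 4 arrays whose labels agree it was 0.02.

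*Idi1* encodes the isomerase that interconverts the isoprenoid units from which squalene is built. Control mice 1 to 4 had log2 ratios of -0.27, -0.26, -0.47 and -0.33, and BaP-exposed mice 1 to 4 had -0.49, -0.55, -0.47 and -0.37. Control mouse 3 lay within the range of the BaP-exposed mice, and BaP-exposed mouse 4 within that of the controls. The group means were -0.33 ± 0.10 and -0.47 ± 0.08, with a log2 fold change of -0.14 (SE 0.08, 95% confidence interval -0.32 to 0.04, limma adjusted p = 0.641). An exact 2-sided permutation test over the 70 assignments of mice gave p = 0.0571, where the smallest p it can give is 0.0286. Without control mouse 3 or BaP-exposed mouse 4 the groups did not overlap, with adjusted p-values of 0.546 and 0.522 from limma. In the 4 arrays with agreeing labels the difference was -0.26, and in the other 4 it was -0.02.

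*Fdft1*, squalene synthase, commits isoprenoids to sterols. Its brighter probe gave 0.29, 0.48, 0.60 and 0.48 in control mice 1 to 4, and 0.61, 0.12, 0.18 and 0.52 in BaP-exposed mice 1 to 4. BaP-exposed mice 2 and 3 were below every control mouse, and BaP-exposed mouse 1 was above every one. The means of 0.46 ± 0.13 and 0.36 ± 0.24 differed by -0.11 on the log2 scale (SE 0.13, 95% confidence interval -0.38 to 0.17, limma adjusted p = 0.824), and by -0.02 over the arrays with agreeing labels. With a mouse left out it ran from -0.19, without BaP-exposed mouse 1, to -0.03, without BaP-exposed mouse 2. A second probe of *Fdft1* was well above background on 2 of the 8 arrays and was not tested. Without the filter on dim probes its log2 fold change was 0.08, opposite in sign to that of the brighter probe.

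*Sqle*, squalene epoxidase, adds the oxygen to squalene and is a known control point of the later pathway. Control mice 1 to 4 were at -0.49, -0.31, -0.30 and -0.18. BaP-exposed mice 1 to 4 were at -0.40, -0.57, -0.56 and -0.46. Control mouse 1 was below BaP-exposed mice 1 and 4, and the other control mice were above all BaP-exposed mice. The means were -0.32 ± 0.13 and -0.50 ± 0.08, a log2 fold change of -0.18 (SE 0.09, 95% confidence interval -0.38 to 0.02, limma adjusted p = 0.594; exact permutation p = 0.0857), the one furthest from 0 of the 7. Without control mouse 1 the groups did not overlap, and the log2 fold change of -0.23 still had an adjusted p of 0.494 from limma. It was -0.09 over the arrays with agreeing labels.

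*Cyp51*, the cytochrome P450 that removes a methyl group from lanosterol, was at -1.09, -1.18, -1.19 and -1.38 in control mice 1 to 4. BaP-exposed mice 1 to 4 had log2 ratios of -1.19, -1.37, -0.92 and -1.32. The highest value was that of BaP-exposed mouse 3 and the lowest that of control mouse 4. The means of -1.21 ± 0.12 and -1.20 ± 0.20 differed by 0.01 (SE 0.11, 95% confidence interval -0.24 to 0.26, limma adjusted p = 0.989), and by -0.15 over the arrays with agreeing labels. The 2 highest ratios came with the dimmest spots in the reference channel, with a log2 Cy3 of 8.03 for control mouse 1 and 8.195 for BaP-exposed mouse 3 against 9.07 to 9.73 for the other mice. The part of spot brightness in these ratios was not tested.

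*Insig1* encodes an inhibitor of the pathway that is itself switched on by SREBP2, and so serves as a common readout of it. Its log2 ratio was -0.93, -0.82, -0.83 and -0.68 in control mice 1 to 4 and -0.89, -0.95, -1.04 and -0.35 in BaP-exposed mice 1 to 4. BaP-exposed mouse 4 stood well above all other mice, while BaP-exposed mice 2 and 3 were the lowest of all 8. The means were -0.82 ± 0.10 and -0.81 ± 0.31, which gave a log2 fold change of 0.01 (SE 0.14, 95% confidence interval -0.31 to 0.33, limma adjusted p = 0.990). Without BaP-exposed mouse 4 it was -0.14 with an adjusted p of 0.611, and over the arrays with agreeing labels -0.04.

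*Srebf2*, the gene of SREBP2 itself, had 2 tested probes, which gave opposite signs. The brighter probe read -1.02, -1.41, -1.30 and -1.06 in control mice 1 to 4 and -0.96, -1.19, -1.30 and -1.02 in BaP-exposed mice 1 to 4. Both groups covered nearly the same range, with a log2 fold change of 0.08 (SE 0.12, 95% confidence interval -0.18 to 0.33, limma adjusted p = 0.861). Without control mouse 2 it was 0.01, and without BaP-exposed mouse 3 it was 0.14. The dimmer probe read -0.95, -0.997, -0.94 and -0.65 in control mice and -0.98, -1.39, -1.19 and -1.11 in BaP-exposed mice. On it, BaP-exposed mouse 1 lay just above control mouse 2 and the other BaP-exposed mice lay below all controls. Its log2 fold change was -0.28 (SE 0.11, 95% confidence interval -0.53 to -0.03), with an unadjusted p of 0.0298 and an adjusted p of 0.538 from limma and an exact permutation p of 0.0571. It was the 1 of the 8 tested probes of these genes with an unadjusted p under 0.05, and over the arrays with agreeing labels the probes gave 0.14 and -0.21. With groups from the source names the dimmer probe was above 0, at 0.07.

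The 4 arrays with agreeing labels lie in the first row of the slide. Within that row and within the other, the log2 fold changes of *Hmgcs1*, *Sqle*, *Fdft1*, *Idi1* and *Srebf2* had the sign of the full comparison, and those of *Insig1*, at -0.04 and 0.06, and *Cyp51*, at -0.15 and 0.17, did not share a sign. With the groups taken from the source names instead, the 7 log2 fold changes lay between -0.16 and 0.09 with adjusted p-values of 0.918 or more from limma.

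For 5 of the 7 genes, all but *Sqle* and *Idi1*, the SD within groups was larger than the difference of the group means. The SD within groups was 0.23 for *Insig1*, with 81.4% of all tested probes having a smaller one, and 0.19 for *Fdft1*, with 71.3%. It was 0.09 for *Idi1*, with 11.4% of probes below it, and 0.10 for *Hmgcs1*, with 19.3%. Relative to the mean of each gene, BaP-exposed mouse 2 was below for all 7 genes and BaP-exposed mouse 3 for all but *Cyp51*, while BaP-exposed mice 1 and 4 and control mouse 2 were above for 5 and control mouse 4 for 6. The mean log2 ratio of the 7 genes was -0.27, -0.25, -0.27 and -0.21 in control mice 1 to 4 and -0.23, -0.41, -0.36 and -0.16 in BaP-exposed mice 1 to 4. The BaP-exposed mice held both the 2 lowest and the highest of these means.

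**Figure D2:**
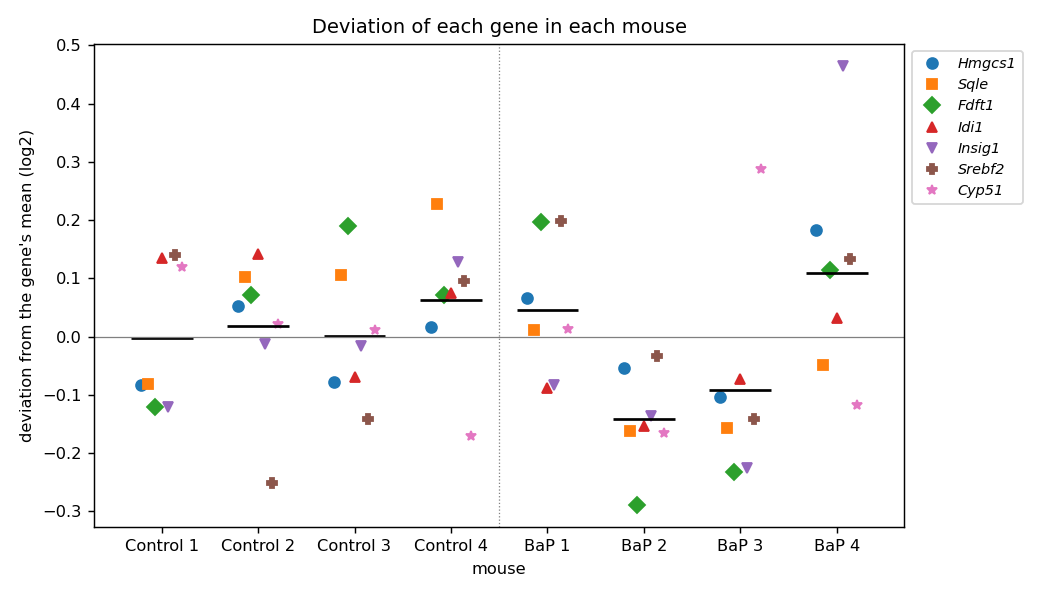
Deviation of the log2 ratio of each of the 7 genes from its own mean over the 8 mice, by mouse, with a black line at the mean of the 7 deviations and a dotted line between the groups. BaP-exposed mice 2 and 3 have mean deviations of -0.14 and -0.09, and BaP-exposed mouse 4 one of 0.11.

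Among the 8 mice, *Hmgcs1* and *Insig1* ran most closely together, with a Pearson r of 0.83 over all mice and 0.85 after the group means were removed. *Sqle* and *Fdft1* followed with 0.73 and 0.76. *Cyp51* ran against *Insig1* at -0.58 and against *Hmgcs1* at -0.51. *Srebf2* had an r between -0.31 and 0.37 with each of the other genes. These are descriptions over 8 values from the same arrays, whose dye and labeling differences are shared by all genes of an array. Of 14768 genes outside the lists, those most like the mean of the 7 over the 8 mice were *Gm10767*, *Rbm48*, *Ptprg*, *Crebl2* and *Bend5*, with an r of 0.95, 0.95, 0.95, 0.93 and 0.92. *Ptprg*, a receptor tyrosine phosphatase, read 1.08, 1.28, 1.38 and 1.40 in control mice 1 to 4. In BaP-exposed mice 1 to 4 it read 1.49, 0.68, 0.86 and 1.49. It was picked for its likeness to the mean of the 7. Its low values in the BaP-exposed mice where that mean was lowest therefore follow from the choice. How high an r the best of 14768 genes would reach by chance over 8 mice was not tested.

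The other genes of the pathway gave no calls either. Of 54 genes in lists of sterol synthesis, SREBP control, sterol uptake, sterol efflux and fatty acid synthesis, 53 were tested. After exposure 26 of them were higher and 27 lower (median log2 fold change 0.00). None passed the adjusted p of 0.05 from limma, the lowest being 0.490, while 4 had an unadjusted p under 0.05 and 3 had groups that did not overlap. Among the 21 enzymes from acetyl-CoA to cholesterol, which include 5 of the 7 genes, 8 were higher and 13 lower, with a median of -0.04. Over all probes, the shares with an unadjusted p under 0.05 and without overlap were 8.77% and 5.06%. Under median centring of the arrays all the pathway genes named below lay above 0, also those given here with values below 0.

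Of the 6 other genes up to farnesyl diphosphate, 2 were higher and 4 lower, and the groups overlapped for all 6. *Acat2*, which makes the acetoacetyl-CoA that *Hmgcs1* uses, had a log2 fold change of 0.14, with control mouse 1 dropped as an outlier spot. *Pmvk* and *Mvd*, kinase and decarboxylase of the mevalonate steps, had -0.12 and -0.07, and a dimmer probe of *Pmvk* gave 0.04. Over the arrays with agreeing labels *Acat2*, *Pmvk* and *Mvd* were at 0.30, -0.29 and -0.04, and with groups from the source names at 0.08, -0.17 and 0.03. With a mouse left out, *Acat2* ran from 0.065, without control mouse 2, to 0.22, without control mouse 3. *Pmvk* was at -0.05 and *Mvd* at -0.01 without BaP-exposed mouse 2.

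After squalene, 4 of 10 other genes were higher and 6 lower, and 2 had groups that did not overlap. *Nsdhl*, a dehydrogenase of the sterol demethylation complex, was at -0.88, -0.55, -0.49 and -0.57 in control mice and -0.41, -0.41, -0.21 and -0.39 in BaP-exposed mice, all 4 above every control mouse. They differed by 0.27 on the log2 scale (SE 0.10, limma adjusted p = 0.533), and a dimmer probe of *Nsdhl* gave 0.05 with overlapping groups. The groups of *Nsdhl* also overlapped in the authors' log ratios, at 0.20, and in Agilent's processed signals, at 0.27. *Ebp*, the sterol isomerase, was at -0.47, -0.45, -0.42 and -0.48 in control mice and -0.74, -0.55, -0.62 and -0.48 in BaP-exposed mice. All 4 BaP-exposed mice were below the controls, mouse 4 only just, at a log2 fold change of -0.15 (SE 0.08, limma adjusted p = 0.616). *Lbr*, the lamin B receptor with sterol reductase activity, had 0.22 with overlapping groups. The groups of *Ebp* overlapped without background correction, in Agilent's processed signals, in the Cy5 channel alone and under median centring, where it was above 0, at 0.15. Over the arrays with agreeing labels *Nsdhl*, *Ebp* and *Lbr* were at 0.30, -0.19 and 0.13, and with groups from the source names at 0.03, -0.04 and -0.08.

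Of 8 genes listed for SREBP processing, 5 were higher and 3 lower, with a median log2 fold change of 0.10. Their mean log2 ratio ran from 0.02 to 0.10 in control mice and from 0.11 to 0.27 in BaP-exposed mice. That mean includes *Erlin2* and was not tested. *Erlin2*, which encodes a protein of the endoplasmic reticulum, had the lowest p of the pathway lists. It read -0.03, -0.33, -0.26 and -0.42 in control mice 1 to 4 and 0.00, 0.47, 0.72 and 0.06 in BaP-exposed mice 1 to 4. Every BaP-exposed mouse was above every control mouse and BaP-exposed mice 2 and 3 stood highest. The groups differed by 0.57 on the log2 scale (SE 0.16, limma adjusted p = 0.490; exact permutation p = 0.0286), 0.42 over the arrays with agreeing labels and -0.16 with groups from the source names. *Ubxn8*, a protein of the endoplasmic reticulum with no sure role in SREBP processing, had 0.24, and *Scap*, the escort of SREBP, 0.11, both with overlapping groups. *Insig2*, the other INSIG gene, had -0.09 and -0.33 on a dimmer probe, and *Srebf1*, the gene of SREBP1, -0.06. Over the arrays with agreeing labels *Ubxn8*, *Scap*, *Insig2* and *Srebf1* were at 0.42, 0.06, -0.14 and -0.08, and with groups from the source names at 0.18, -0.05, -0.05 and -0.02. *Ubxn8* was at 0.15 without control mouse 1, *Scap* at 0.07 and *Insig2* at -0.14 without control mouse 4, and *Srebf1* at -0.01 without BaP-exposed mouse 2.

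Of 6 genes listed as SREBP2 targets, mostly of sterol uptake and transport, 4 were higher, and the groups overlapped for all 6. *Lpin1*, a phosphatidate phosphatase, had 0.21 and *Npc1*, the lysosomal cholesterol transporter, 0.20. They were at 0.10 and 0.09 over the arrays with agreeing labels, and below 0 with groups from the source names, at -0.11 each.

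Of 11 tested genes of sterol efflux and turnover, 4 were higher and 7 lower, with a median log2 fold change of -0.01. *Abca1*, the cholesterol exporter driven by LXR, had the difference of this list furthest from 0, at 0.34 (SE 0.17, limma adjusted p = 0.588). *Mylip*, an LXR target that encodes a ubiquitin ligase, had 0.28, with 0.17 without control mouse 4, while its dimmer probe gave -0.11. *Soat1*, which esterifies cholesterol, had -0.11, which rested on control mouse 4, since it was 0.015 without that mouse. Over the arrays with agreeing labels *Abca1*, *Mylip* and *Soat1* were at 0.16, 0.15 and 0.04, and with groups from the source names all 3 had the opposite sign, at -0.18, -0.13 and 0.14. Among 12 genes of fatty acid synthesis, mostly under SREBP1, 7 were higher and 5 lower. *Scd1*, the stearoyl-CoA desaturase, had 0.28, *Acaca*, acetyl-CoA carboxylase, -0.16 and *Acly*, ATP citrate lyase, -0.13, with -0.30 on a dimmer *Acly* probe. *Scd1*, *Acaca* and *Acly* were at 0.295, -0.18 and -0.25 over the arrays with agreeing labels, and at 0.015, -0.015 and -0.12 with groups from the source names. Without BaP-exposed mouse 2, *Acly* was at -0.08. On the 8 arrays the groups overlapped for each of these genes.

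**Figure D3:**
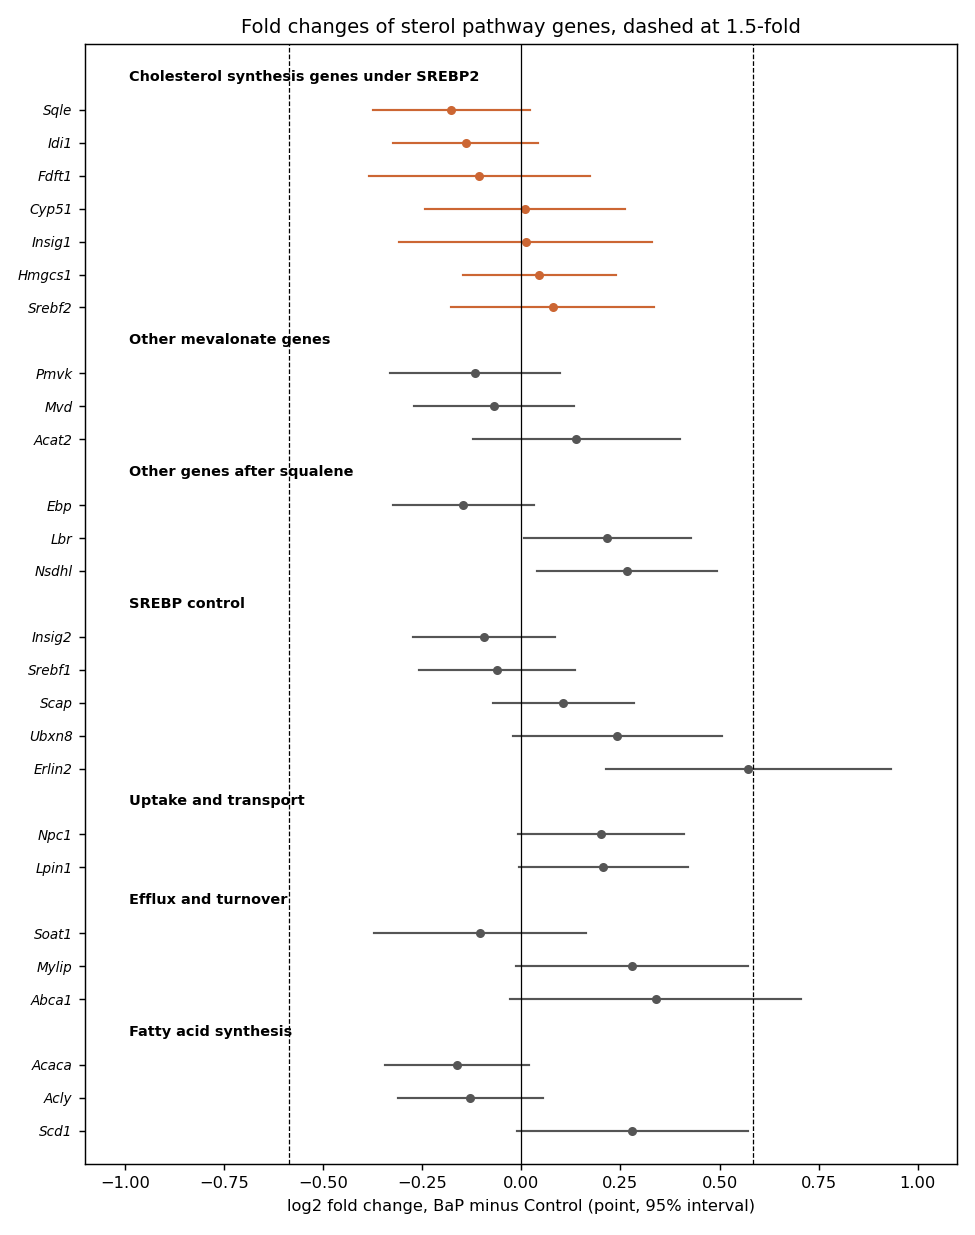
Log2 fold change, BaP minus control, with its 95% confidence interval from limma for the 7 genes (orange) and the other pathway genes named in the text (gray), with dashed lines at a 1.5-fold change in either direction. The intervals of the 7 genes all contain 0 and lie between the dashed lines, and those of *Erlin2* and *Abca1* pass the upper one.

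Markers of cell types also varied among the mice. The mean log2 ratio of 12 oligodendrocyte markers was 4.64, 4.31, 4.30 and 4.29 in control mice 1 to 4 and 4.35, 4.94, 4.89 and 4.44 in BaP-exposed mice 1 to 4, highest in the BaP-exposed mice with the lowest mean of the 7 genes. The median log2 fold change of these markers was 0.25, with 9 of 12 higher and 0 called. Over 10 choroid plexus markers the means ran from 2.20 to 4.02 in control mice and from 1.62 to 5.04 in BaP-exposed mice, again highest in BaP-exposed mice 2 and 3, and 10 of 10 were higher with 0 called. The 10 astrocyte markers ran from 4.58 to 4.85 and from 4.52 to 4.69, with 8 lower and 0 called. The 10 neuron markers ran from 4.23 to 4.37 and from 4.30 to 4.49. The 8 microglia markers ran from 1.95 to 2.08 and from 1.97 to 2.08, and the 8 meningeal ones from -1.50 to -0.09 and from -1.46 to -0.25. The 8 endothelial markers ran from 1.55 to 1.88 and from 1.69 to 1.90. Of these, 4 had an unadjusted p under 0.05 in limma, against 8.77% of all probes, and 0 were called. The 5 tested blood markers were all lower in BaP-exposed mice, 2 of them past the adjusted p of 0.05 from limma, at 3.54 to 3.77 against 2.60 to 2.88. The groups as titled were apart on this list also among the 4 arrays with conflicting labels, with 3.73 and 3.66 in control mice 3 and 4 against 2.82 and 2.88 in BaP-exposed mice 3 and 4, and no group was assigned from these values. The part of these cell types in the values of the 7 genes was not tested.

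**Figure D4:**
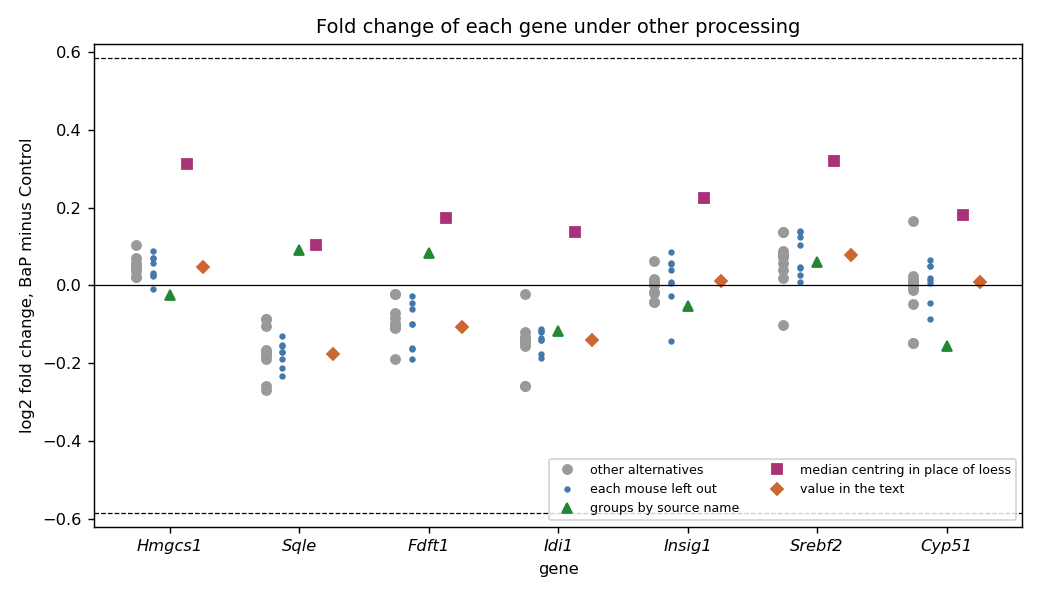
Log2 fold change of the 7 genes, BaP minus control, in the comparison as reported (diamonds), with each mouse left out (small points), with groups from the source names (triangles), under median centring in place of loess (squares) and under the other alternatives (circles), with dashed lines at a 1.5-fold change. All points lie between the dashed lines, from -0.27 for *Sqle* to 0.32 for *Srebf2*, and the squares are shifted upward for all 7 genes.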

How the data were processed

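Hippocampal RNA of 8 male mice was hybridized to 2-color Agilent arrays. The authors deposited the intensity of each spot in both channels with background levels and spot marks (Agilent Feature Extraction 11.0.1.1), and a table of log2 ratios of sample over reference, which the paper describes as LOWESS-normalized (column medians -0.05 to -0.03, r of 0.913 to 0.981 with the scanner's ratio in the same direction).

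Spot medians were background-corrected by normexp (offset 50, limma 3.58.1 in R 4.3.3) and normalized within each array by loess. Outlier spots were set to missing, and spots of a probe averaged. Probes whose Cy5 signal was well above background on 4 or more of the 8 arrays were tested by lmFit and eBayes, 32624 of 55681. The brightest tested probe stood for a gene. Of 28685 probes with a RefSeq accession, 27235 (94.9%) were named through RefSeq of GRCm38.p6. Exact permutation tests were 2-sided. Summaries used Python 3.11.15, pandas 2.3.3 and numpy 2.4.6. The fits were tested on simulated data.

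The 7 genes, the gene lists and the tests were chosen with earlier results of these data known, and the motifs after the promoters were seen. Named genes are the 7, *Scap*, *Insig2*, *Srebf1* and further genes set by name, the 3 of lowest p in each of the 6 pathway lists, and the 5 most like the mean of the 7. Some genes that this rule names are not reported here. Alternatives covered background, normalization, filters, the test, blocks, labels and each mouse left out. Array data of whole hippocampi from 4 mice a group limit the precision.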

Additional observations from a re-analysis of the deposited data

Results flagged for a closer look

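For the 7 genes and the named pathway genes, 59 groups of 4 mice were looked at for a mouse far from the others, by its gap as a share of the range of the group (Dixon's 95% limit), and 3 had one, where chance gives about 1 in 20. On the dimmer *Srebf2* probe, control mouse 4 was at -0.65 and the other control mice at -0.997 to -0.94 (gap 0.831 of the range), and without it the log2 fold change of that probe was -0.205 in place of -0.28. For *Nsdhl*, BaP-exposed mouse 3 was at -0.21, while the others of its group lay at -0.41 to -0.39 (gap 0.902). For *Soat1*, control mouse 4 was at -1.41 and the other control mice at -1.91 to -1.86 (gap 0.902), and without it the log2 fold change was 0.015 in place of -0.11.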

How the results depend on the processing

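Under all 26 alternatives, 0 of the 7 genes passed the adjusted p of 0.05 wherever one was given, the lowest being 0.252 for *Hmgcs1* under median centring. Median centring in place of loess gave *Sqle* 0.105, *Fdft1* 0.17 and *Idi1* 0.14, a median of 0.18 for the 7 genes and of 0.24 for the pathway genes, while the median of all probes moved by 0.17. Relative to that shift the 7 genes lay between -0.06 and 0.15. Groups by source name gave *Hmgcs1* -0.024, *Sqle* 0.091, *Fdft1* 0.084, *Insig1* -0.053 and *Cyp51* -0.156. The 4 arrays with agreeing labels, which are slide row 1 and so the same fit counted under both names, gave *Insig1* -0.043 and *Cyp51* -0.147. *Cyp51* was also below 0 without background correction (-0.011), with Agilent's processed signals (-0.005) and with the authors' log ratios (-0.047), and *Insig1* with the authors' log ratios (-0.019) and the Cy5 channel alone (-0.016). The mean over the probes of a gene gave *Srebf2* -0.10 and the 7 genes a median of -0.10. The cause was not tested for any of these.

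With a mouse left out, log2 fold changes ran from -0.008 to 0.088 for *Hmgcs1*, from -0.143 to 0.087 for *Insig1*, from -0.086 to 0.066 for *Cyp51*, from -0.189 to -0.027 for *Fdft1*, from 0.008 to 0.139 for *Srebf2*, from -0.234 to -0.131 for *Sqle* and from -0.187 to -0.113 for *Idi1*, and the median of the 7 genes from -0.143, without BaP-exposed mouse 4, to 0.058. Leaving out a mouse gave 0 to 1 of the 7 genes without overlap of the groups (*Sqle* without control mouse 1, *Idi1* without control mouse 3 or BaP-exposed mouse 4) and 1 to 3 called probes, with 1 without control mouse 1, 3 or 4 or BaP-exposed mouse 2. The count of called probes, 3 as reported, was 0 with Agilent's processed signals, within slide row 1, within slide row 2, by the gene-wise F test and with groups by source name, and 5 without the filter on dim probes, 6 with the Cy5 channel alone and 7 with a robust fit and intensity trend. Mice with the same number did not deviate together (r from -0.354 to 0.031), and with the replicate number as a block 3 probes and 0 of the 7 genes passed. The 4 mice a group limit the precision, and the second *Fdft1* probe was too dim to test.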
